A study of Mus musculus with 12 samples.

Results

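Nucleoporins, the proteins of the nuclear pore, and the nuclear transport receptors that carry cargo through it were followed in BV2 cells, an immortalised mouse cell line derived from microglia, which are macrophages that live in neural tissue. The members were the protein-coding genes whose symbol begins with Nup, Ipo, Xpo, Tnpo or Kpna followed by the number of the family member, with Kpnb1, Xpot, Tpr, Rae1, Ranbp2, Pom121, Ndc1, Ran, Cse1l and Seh1l. The rule used names only and found 52 of the 27487 genes listed. The 12 libraries of polyadenylated RNA fall into 3 groups of 4. CTR was BV2 cells grown alone, Neu was BV2 cells grown with primary mouse neutrophils, and Neu+NETS was BV2 cells grown with mouse neutrophils stimulated by PMA (phorbol myristate acetate), which makes neutrophils release extracellular traps of chromatin and granule proteins (NETs). All groups share the cell line, and retina is also named in the labels, as the tissue. No source used here says whether replicates are separate cultures, so the p-values reflect library-to-library spread that could be technical.

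The nuclear pore complex is a ring-shaped channel through the nuclear envelope. Outer rings (the Y complex) and an inner ring form its scaffold, transmembrane nucleoporins anchor it, nucleoporins rich in phenylalanine-glycine repeats fill the central channel, and filaments extend to the cytoplasm and a basket to the nucleoplasm. Importins bind cargo in the cytoplasm and release it in the nucleus where they meet Ran bound to GTP, whereas exportins bind cargo together with RanGTP and release it in the cytoplasm after GTP hydrolysis. Importin alpha proteins (Kpna genes) are adaptors that link classical nuclear localisation signals to importin beta (Kpnb1), and Cse1l returns importin alpha to the cytoplasm. In macrophages and microglia these carriers bring signal-dependent transcription factors into the nucleus.

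Levels are FPKM, a measure of fragments adjusted for the length of the transcript and the depth of the library, a scale per length on which genes can be compared. Totals per library ran from 53512190 to 68316549 estimated counts. A gene was called where its adjusted p was under 0.05 in a quasi-likelihood fit with edgeR over 16387 genes and all 12 libraries. Log2 fold changes are given ± SE and levels as mean ± SD, with n = 4 libraries in each group. Of the 52 members 51 passed the filter on low counts, and the smallest count of any of these in any library was 45, for Nup210l. Nup62cl, the member that did not pass, was listed at 0 in 11 libraries and at 0.0397 FPKM (7 estimated counts) in Neu+NETS replicate 3. Kpna7, Nup42 and Nup58 were looked for, and no protein-coding gene listed carried these symbols. By their mean FPKM in CTR the most abundant members were Ran (232 ± 5.0 FPKM), Kpna2 (111 ± 4.2), Kpnb1 (98.7 ± 0.62) and Ipo5 (83.1 ± 2.1), the GTPase, 1 adaptor and 2 importins.

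The nuclear transport genes fell together in the co-culture with unstimulated neutrophils and most stood near or above the control level in the co-culture with PMA-stimulated neutrophils. In Neu against CTR 50 of the 51 tested members were called, where 54.1% of all tested genes were. Of them 47 were called lower, against 27.9% of all tested genes, and 3 higher, against 26.1%. A change of at least 0.5 on the log2 scale with a call was seen downward in 25 members, against 11.7% of all tested genes, and upward in 1, against 14.2%. The libraries of the groups did not overlap in FPKM for 46 members on the lower side (29.0% of all tested genes) and 2 on the higher side (22.5%). The median log2 fold change of the tested members was -0.50, and that of all tested genes 0.02. The 3 members called higher were Kpna4, Tnpo2 and Nup210l, and Tpr was not called.

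In Neu+NETS against CTR the changes were smaller. Of the 51 tested members 32 were called (45.3% of all tested genes), 25 of them higher (21.6%) and 7 lower (23.7%), and 19 were not called, with a median log2 fold change of 0.10 against 0.00 for all tested genes. Only Kpna4, Tnpo1 and Nup210l were called with a rise of at least 0.5, against 5.13% of all tested genes, and no member was called with a fall of that size, against 11.4%. The groups did not overlap in FPKM for 33 members on the higher side (23.7% of all) and 4 on the lower side (18.4%). On the FPKM scale limma called 32 higher and 4 lower. The members called lower by edgeR were Nup133, Seh1l, Nup214, Kpna2, Ipo8, Pom121 and Nup210. Of these calls that of Ipo8 was lost in 12 of 23 alternative settings, that of Nup133 in 4 and that of Kpna2 in 3. In Neu+NETS against Neu, 50 of the 51 tested members were called (62.5% of all tested genes), all of them higher (29.4%), 28 of them by at least 0.5 (15.8%), and Nup210l was not called. None was called lower by edgeR (33.1% of all tested genes were), by DESeq2 or by limma, and 0 members had a lower level at an unadjusted p under 0.05. The groups did not overlap in FPKM for 50 members, all on the higher side (32.6% of all). The 3 comparisons share their libraries pairwise, so their counts are not independent of one another.

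**Figure D1:**
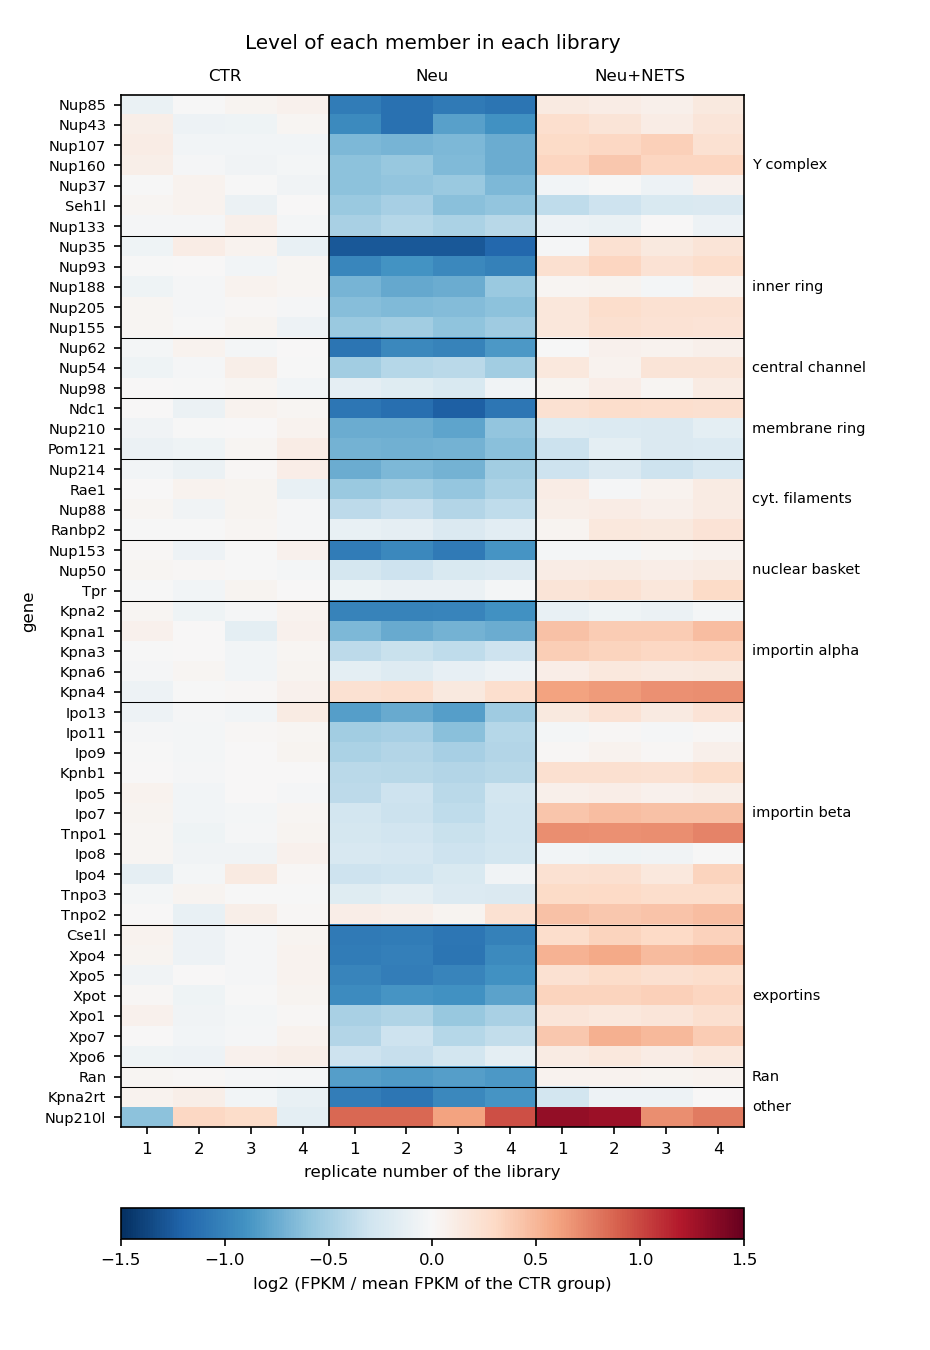
Heatmap of the 51 tested members (rows, grouped by role) in the 12 libraries (columns, by group and replicate), coloured by log2 of FPKM over the mean FPKM of CTR. Most rows are below the CTR mean in all 4 Neu libraries and near or above it in all 4 Neu+NETS libraries, while Kpna4, Tnpo2 and Nup210l are higher in Neu.

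Summed over the 52 members, FPKM ran from 1655 to 1690 in the CTR libraries, 1080 to 1131 in Neu and 1838 to 1888 in Neu+NETS, so the 3 groups did not overlap. Genes of cell proliferation moved beside them. The 10 listed proliferation markers, among them Mki67, Pcna and genes of the replicative helicase, were all called lower in Neu and all called higher in Neu+NETS against Neu, and in Neu+NETS against CTR 2 were called higher and 3 lower. Their summed level was 754 to 774 FPKM in CTR, 429 to 446 in Neu and 788 to 826 in Neu+NETS. Their part in the members' change was not tested. In bulk libraries fewer cells of a type and less RNA per cell cannot be told apart, and RNA of neutrophils left in the co-culture would be counted with that of BV2 cells. The 8 mature neutrophil markers found summed to 5.54 to 6.99 FPKM in CTR, 6.83 to 7.11 in Neu and 0.797 to 1.39 in Neu+NETS, most of it Csf3r, with 3 of the 8 at 0 in all Neu+NETS libraries. Of the 5 tested, Lcn2 and Mmp9 were called higher in Neu against CTR and 4 were called lower in Neu+NETS against CTR. Both were low in level, Lcn2 at a mean of 0.223 FPKM in CTR and 0.95 in Neu, and Mmp9 at 0.548 and 1.46. Csf3r was at 5.15 FPKM in CTR and 4.155 in Neu, and was not called between them. S100a8, abundant in mature neutrophils, and Camp and Ngp, granule genes of maturing ones, were at or near 0 in every group (S100a8 mean 0.257 FPKM in CTR, 0.189 in Neu and 0.0547 in Neu+NETS). Of the 5 precursor markers, Cebpe made up most of the sum (15.6 to 18.2, 19.5 to 23.1 and 7.16 to 9.30 FPKM), and Mpo and Elane were near 0. Both precursor markers that could be tested, Cebpe and Prtn3, were called higher in Neu against CTR, Prtn3 at a mean of 0.0645 FPKM in CTR and 0.3985 in Neu. The part of the neutrophil and precursor markers in the members' values was not tested. The 12 macrophage and microglia markers summed to 1216 to 1286 FPKM in CTR, 1279 to 1331 in Neu and 830.2 to 840.0 in Neu+NETS, with 5 called higher and 3 lower in Neu against CTR and all 12 lower in Neu+NETS against CTR. P2ry12 and Cx3cr1, which mark microglia in tissue, were under 1 FPKM in CTR. Cx3cr1 was 0.718 ± 0.19 FPKM in CTR, 5.48 ± 0.18 in Neu and 0.03201 ± 0.033 in Neu+NETS, and P2ry12 0.658 ± 0.19, 0.282 ± 0.10 and 0.0199 ± 0.023. The 3 retinal neuron and glia markers found summed to under 1 FPKM in every library, so the tissue the labels name was not seen in its markers.

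Promoter sequences are shown as a description, and matches to 2 of the short sequences searched are printed. Their part in the members' changes was not tested. RefSeq windows of 300 bases, 250 before and 50 after the transcription start (build GRCm38.p6, another build than the GRCm39 of the deposited table), were matched by symbol for 40 of the 52 members, 47 windows in all. Cse1l, Kpna1, Kpna2rt, Kpna3, Kpna6, Nup210l, Nup35, Nup43, Nup85, Seh1l, Xpo4 and Xpo7 had no entry. CACGTG, the palindromic E-box bound by Myc and related factors, was in 9 members (22.5%) and in 8.9% of 17491 protein-coding genes with windows of that length. The palindromic motif bound by NRF1, whose letters are the capitals in Nup62 and Nup107 below, was in 5 (12.5%) and in 1.5% of all. GC content was 63.9% in the members' windows and 56.2% in all windows. Other letters searched on both strands were CCAAT (20 of the 40 members, 42.3% of all), CCGGAAG (17.5%, 12.9%), TTTGAA (22.5%, 18.5%), ACGTG, which lies within CACGTG (37.5%, 23.2%), TTTCCCGC (2.5%, 1.6%) and TTTGGCGC (0% of members, 0.7%). These are matches of letters and not sites shown to be bound. The stretches below run 5′ to 3′ on the gene's strand, with the matched letters in capitals. The E-box is shown in Nup188 (chr2:30286320-30286415, plus strand) and Tnpo2 (chr8:85036708-85036812, plus strand), each with a pair of matches, and in Xpot (chr10:121626528-121626582, minus strand). Ran (chr5:129019921-129020073, plus strand) holds both palindromes. The NRF1 palindrome is shown in Nup62 (chr7:44816038-44816087, plus strand), Nup107 (chr10:117792731-117792800, minus strand) and Xpo5 (chr17:46202696-46202788, plus strand), which holds a pair. Nup50, the remaining member with this palindrome, also holds a pair and is not shown (log2 fold change -0.20 in Neu against CTR).
Nup188: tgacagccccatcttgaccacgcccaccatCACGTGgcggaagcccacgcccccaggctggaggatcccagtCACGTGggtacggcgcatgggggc
Tnpo2: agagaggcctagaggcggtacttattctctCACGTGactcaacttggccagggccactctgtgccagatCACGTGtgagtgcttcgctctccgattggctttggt
Xpot: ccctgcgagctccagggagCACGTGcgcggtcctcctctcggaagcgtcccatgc
Ran: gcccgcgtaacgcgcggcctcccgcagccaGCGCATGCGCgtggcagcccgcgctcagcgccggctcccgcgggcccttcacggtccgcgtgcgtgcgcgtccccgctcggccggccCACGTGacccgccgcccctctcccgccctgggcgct
Nup62: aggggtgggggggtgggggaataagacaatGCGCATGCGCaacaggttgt
Nup107: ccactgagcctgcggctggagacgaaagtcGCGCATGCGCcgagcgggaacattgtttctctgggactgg
Xpo5: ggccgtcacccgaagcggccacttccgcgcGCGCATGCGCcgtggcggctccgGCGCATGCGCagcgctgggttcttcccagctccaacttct

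Members with and without these letters both fell in Neu. Of the 9 with the E-box 8 were called lower and 1 (Tnpo2) higher, with a median log2 fold change of -0.41, and of the 30 tested members with a window but no E-box 28 were called lower, with a median of -0.47. All 5 with the NRF1 palindrome were called lower, with a median of -0.78 (-0.92 to -0.20). Of the 34 tested members with a window but no palindrome 31 were called lower and 2 higher. Their median was -0.42 (-1.07 to 0.28), so the ranges overlapped. The 12 members with no window are in neither set. The log2 fold changes of those 12 ran from -1.19 (Nup35, the largest fall of all tested members) to 0.87 (Nup210l), so the medians above do not describe all members. Ran is in both groups.

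Of the scaffold, the Y complex of the outer rings had 7 of 7 members called lower in Neu (median log2 fold change -0.59), and 2 higher and 2 lower in Neu+NETS against CTR. Of all tested genes 27.9% were called lower and 26.1% higher in Neu, and 21.6% higher and 23.7% lower in Neu+NETS against CTR. These shares stand beside the counts of every role group below. For the Y complex in Neu+NETS, 28.6% in each direction was close to them. Nup85 read 38.03, 40.8, 41.9 and 42.8 FPKM in the CTR libraries, 19.7, 18.9, 19.6 and 19.1 FPKM in Neu and 44.9, 44.1, 43.1 and 45.1 FPKM in Neu+NETS. All Neu libraries lay below all CTR libraries by more than the spread within either group (-1.02 ± 0.036, adjusted p = 3.6e-13), and Neu+NETS was not called against CTR (0.07 ± 0.035, adjusted p = 0.14) although its FPKM did not overlap CTR. Nup43, a small beta-propeller subunit of the Y complex, was similar. Nup43 read 12.6, 11.2, 11.3 and 12.1 FPKM in the CTR libraries, 6.09, 5.45, 6.73 and 6.27 FPKM in Neu and 14.04, 13.5, 12.8 and 13.4 FPKM in Neu+NETS, a log2 fold change of -0.89 ± 0.067 in Neu and 0.14 ± 0.065 in Neu+NETS, the latter not called. Nup107, a core scaffold subunit whose promoter palindrome is printed above, rose above control. Nup107 read 26.1, 23.5, 23.5 and 23.4 FPKM in the CTR libraries, 15.1, 14.9, 15.2 and 14.4 FPKM in Neu and 29.4, 30, 31 and 28.2 FPKM in Neu+NETS (-0.64 ± 0.043, adjusted p = 1.5e-09 in Neu and 0.25 ± 0.043, adjusted p = 0.00013 in Neu+NETS). CTR replicate 1 was the highest of the CTR libraries for Nup107 and still below all Neu+NETS libraries. Nup160, a subunit of the Y complex's long arm, did the same. Nup160 read 16.9, 15.7, 15.3 and 15.6 FPKM in the CTR libraries, 10.4, 10.7, 10.1 and 9.49 FPKM in Neu and 19.9, 21.04, 19.9 and 19.9 FPKM in Neu+NETS (-0.59 ± 0.042 and 0.29 ± 0.042). Nup37 (-0.55 and -0.06), Nup133 (-0.40 and -0.11) and Seh1l (-0.51 and -0.33, in Neu and Neu+NETS against CTR) had smaller falls in Neu, and the last 2 were called lower in Neu+NETS too.

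The inner ring had 5 of 5 members called lower in Neu (median -0.63) and 3 higher and 0 lower in Neu+NETS against CTR. Nup35, the membrane-binding subunit at chr2:80447580-80489250 (GRCm39, plus strand), had the largest fall of all tested members. Its span overlaps Dusp19 on the same strand, at a mean of 3.97 FPKM in CTR, 4.61 in Neu and 4.63 in Neu+NETS. Gm13690, on the other strand, was at 6.55, 5.6 and 7.62, so reads may be shared. Nup35 read 14.4, 16.3, 15.7 and 14.1 FPKM in the CTR libraries, 6.27, 6.27, 6.26 and 6.69 FPKM in Neu and 14.9, 17.8, 16.8 and 17.2 FPKM in Neu+NETS. Every Neu library was under 7 FPKM and every CTR library above 14 (-1.19 ± 0.060, adjusted p = 3.3e-11), and the Neu+NETS libraries overlapped CTR (0.09 ± 0.058, adjusted p = 0.24). Nup93, the linker that binds the other inner-ring subunits, fell less than Nup35 in Neu and rose above control in Neu+NETS. Nup93 read 30.97, 31.4, 30.3 and 31.9 FPKM in the CTR libraries, 15.8, 16.7, 15.9 and 15.4 FPKM in Neu and 36.9, 38.8, 36.1 and 37.4 FPKM in Neu+NETS (-0.91 ± 0.034, adjusted p = 7.1e-13 and 0.21 ± 0.033, adjusted p = 5.1e-05). Its span holds the pseudogene Rpl10-ps5, at a mean of 16.8 FPKM in CTR, 16.4 in Neu and 17.1 in Neu+NETS, on the same strand. Of the large scaffold subunits, Nup205 and Nup155 repeated this with smaller changes. Nup205 read 35.1, 33.96, 34.9 and 34.03 FPKM in the CTR libraries, 22.1, 21.8, 21.9 and 22.5 FPKM in Neu and 38.8, 41.5, 40.3 and 40.5 FPKM in Neu+NETS (-0.59 ± 0.025 and 0.18 ± 0.024). Nup155 read 14.8, 14.4, 14.9 and 13.7 FPKM in the CTR libraries, 9.81, 10.1, 9.55 and 9.96 FPKM in Neu and 16.2, 17.02, 16.8 and 16.7 FPKM in Neu+NETS (-0.50 ± 0.031 and 0.16 ± 0.031). Nup188, a paralogue of Nup205 whose promoter holds the pair of E-boxes above, was not called against control in Neu+NETS. Nup188 read 59.1, 61.2, 64.3 and 63.6 FPKM in the CTR libraries, 38.3, 36.5, 36.9 and 42.2 FPKM in Neu and 63.3, 63.99, 61.01 and 64.1 FPKM in Neu+NETS, so that Neu+NETS overlapped CTR (-0.02 ± 0.037, adjusted p = 0.63) while Neu lay below it (-0.63 ± 0.037, adjusted p = 1.9e-10).

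Transmembrane nucleoporins, which anchor the pore in the envelope, differed from each other in Neu+NETS. All 3 were called lower in Neu (median -0.66), and in Neu+NETS against CTR Ndc1 was called higher and Pom121 and Nup210 lower. Ndc1 read 30.3, 28.3, 31.4 and 30.7 FPKM in the CTR libraries, 14.2, 13.8, 12.9 and 14.3 FPKM in Neu and 35.3, 36.1, 35.8 and 35.7 FPKM in Neu+NETS. Every Neu library lay below every CTR library (-1.07 ± 0.035, adjusted p = 1.3e-13), and all Neu+NETS libraries exceeded all CTR libraries (0.19 ± 0.034, adjusted p = 0.00014). Pom121 read 21.7, 22.2, 23.6 and 24.96 FPKM in the CTR libraries, 14.2, 13.98, 14.1 and 14.97 FPKM in Neu and 18.4, 20.9, 19.9 and 20.02 FPKM in Neu+NETS. Its Neu+NETS libraries lay between those of Neu and CTR without overlap (-0.63 ± 0.043, adjusted p = 1.3e-09 in Neu and -0.27 ± 0.043, adjusted p = 5.6e-05 in Neu+NETS). Nup210 took the same intermediate place. Nup210 read 18.02, 18.6, 18.7 and 19.5 FPKM in the CTR libraries, 11.2, 11.1, 10.8 and 12.4 FPKM in Neu and 16.3, 16.2, 16.1 and 16.9 FPKM in Neu+NETS (-0.66 ± 0.035 and -0.24 ± 0.035). The FPKM ratio of Ndc1 to Pom121 was 1.31 ± 0.071 in CTR, 0.964 ± 0.038 in Neu and 1.804 ± 0.079 in Neu+NETS, a description of a pair chosen for these changes, given without a p-value.

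In the central channel 3 of 3 members were called lower in Neu (median -0.41) and 0 were called in either direction in Neu+NETS against CTR, where Nup54 was called higher in 7 of 23 alternative settings. Nup62, a repeat-rich nucleoporin at the centre of the channel whose promoter palindrome is printed above, fell the most. Nup62 read 51.03, 54.2, 51.2 and 52.7 FPKM in the CTR libraries, 24.4, 26.8, 26.1 and 28.7 FPKM in Neu and 51.9, 54.6, 54.04 and 55.02 FPKM in Neu+NETS (-0.92 ± 0.039, adjusted p = 3.6e-12 and -0.0049 ± 0.039, adjusted p = 0.94). Nup98 carries repeats too, and its gene also encodes the scaffold protein Nup96 in one precursor. Nup98 read 8.66, 8.59, 8.77 and 8.39 FPKM in the CTR libraries, 7.83, 7.58, 7.36 and 8.26 FPKM in Neu and 8.88, 9.19, 8.75 and 9.35 FPKM in Neu+NETS, a fall of small size in Neu (-0.09 ± 0.033, adjusted p = 0.024) that 6 of 23 alternative settings did not call. Of the cytoplasmic filaments 4 of 4 members were called lower in Neu (median -0.41), and 1 was called higher and 1 lower in Neu+NETS against CTR. The latter, 25% in each direction, was near the 21.6% higher and 23.7% lower of all tested genes. Nup214, which docks mRNA export factors, was lower in both co-cultures. Nup214 read 24.7, 23.9, 25.7 and 27.2 FPKM in the CTR libraries, 15.2, 15.97, 15.5 and 17.7 FPKM in Neu and 20.5, 21.9, 20.5 and 21.5 FPKM in Neu+NETS (-0.60 ± 0.042, adjusted p = 2.1e-09 and -0.31 ± 0.042, adjusted p = 9.6e-06). Ranbp2, the large filament protein with Ran-binding domains, changed little. Ranbp2 read 20.04, 19.9, 20.4 and 19.8 FPKM in the CTR libraries, 18.6, 18.3, 17.2 and 17.9 FPKM in Neu and 20.7, 22.4, 22.2 and 23.1 FPKM in Neu+NETS (-0.10 ± 0.032, adjusted p = 0.015 and 0.09 ± 0.032, adjusted p = 0.032), and 3 and 6 of 23 settings did not call these. Rae1, an mRNA export factor, was 48.7 ± 2.5 FPKM in CTR, 33.7 ± 1.1 in Neu and 51.1 ± 2.4 in Neu+NETS, and Nup88, Nup214's partner, was 22.3 ± 0.65 FPKM in CTR, 17.01 ± 0.43 in Neu and 23.9 ± 0.37 in Neu+NETS.

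The nuclear basket had 2 of 3 members called lower in Neu (median -0.20) and 1 higher and 0 lower in Neu+NETS against CTR. Nup153, the basket protein that binds the pore's nuclear ring, had a large fall and Tpr, the coiled-coil protein that forms the basket's fibres, did not. Nup153 read 32.3, 30.2, 31.8 and 33.4 FPKM in the CTR libraries, 15.4, 16.4, 15.4 and 17.3 FPKM in Neu and 31.3, 31.2, 32.6 and 33.1 FPKM in Neu+NETS (-0.93 ± 0.037, adjusted p = 1.4e-12 and -0.04 ± 0.036, adjusted p = 0.37). Its Neu libraries were between 15.4 and 17.3 FPKM, and Neu+NETS overlapped CTR. Tpr read 24.1, 23.5, 24.98 and 24.3 FPKM in the CTR libraries, 23.2, 22.8, 22.7 and 23.7 FPKM in Neu and 27.7, 28.4, 27.3 and 29.7 FPKM in Neu+NETS, and Neu overlapped CTR (-0.01 ± 0.027, adjusted p = 0.78) whereas all Neu+NETS libraries lay above CTR (0.17 ± 0.027, adjusted p = 4.6e-05). Nup50, a mobile basket protein that aids importin alpha recycling, was 32.8 ± 0.63 FPKM in CTR, 27.5 ± 0.96 in Neu and 35.5 ± 0.23 in Neu+NETS. Of the 3 genes' summed FPKM Nup153 took 35.9% ± 1.0 in CTR, 24.1% ± 0.93 in Neu and 33.5% ± 0.66 in Neu+NETS, and Tpr 27.2% ± 0.50, 34.6% ± 0.50 and 29.5% ± 0.62. The libraries of the 3 groups did not overlap in the Nup153 share, and the Nup50 share overlapped between Neu+NETS (37.1% ± 0.63) and CTR (36.9% ± 1.1).

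**Figure D2:**
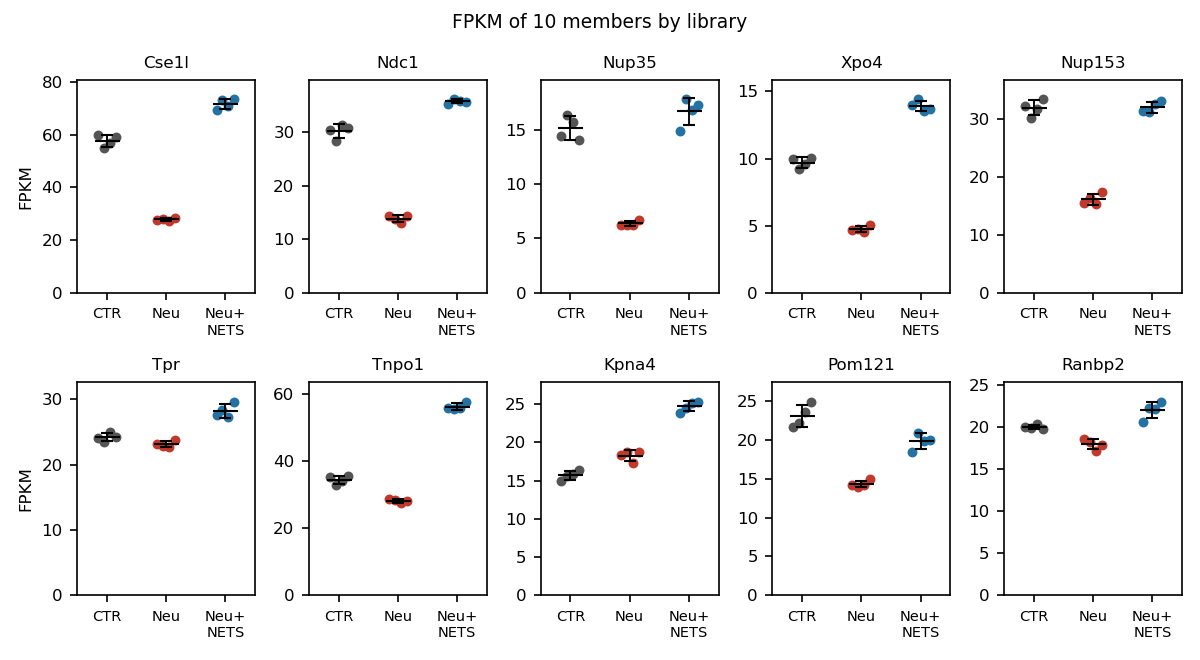
FPKM of 10 members in each of the 12 libraries (points, 4 per group) with the group mean (dash) and SD (bars). Cse1l, Ndc1, Nup35, Xpo4 and Nup153 fall in Neu, Tpr overlaps CTR, Kpna4 rises in both co-cultures, Tnpo1 has its highest values in Neu+NETS, Pom121 is intermediate in Neu+NETS, and Ranbp2 changes little.

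Importin alpha genes had 4 members called lower and 1 higher in Neu, and 4 higher and 1 lower in Neu+NETS against CTR. Kpna2 (chr11:106879455-106890367, GRCm39, minus strand), the adaptor tied to proliferating cells, was the most abundant and fell most. Kpna2 read 114, 106, 109.8 and 115 FPKM in the CTR libraries, 55.4, 55.7, 55.9 and 59.4 FPKM in Neu and 103, 106, 105 and 109 FPKM in Neu+NETS (-0.92 ± 0.029, adjusted p = 8.8e-14, and -0.12 ± 0.028, adjusted p = 0.0018 with overlapping FPKM, a call that 3 of 23 settings did not make). Its copy on another chromosome, Kpna2rt, can share reads with it and had the same pattern at a lower level. Kpna2rt read 7.66, 7.84, 7.18 and 6.84 FPKM in the CTR libraries, 3.58, 3.48, 3.78 and 3.995 FPKM in Neu and 6.103, 6.97, 7.02 and 7.41 FPKM in Neu+NETS (-0.94 ± 0.084 and -0.15 ± 0.082, the latter not called). Kpna4 (chr3:68974482-69034446, minus strand), an adaptor for transcription factors of the NF-kappaB family, rose in both co-cultures. Kpna4 read 14.9, 15.6, 15.8 and 16.3 FPKM in the CTR libraries, 18.4, 18.7, 17.3 and 18.7 FPKM in Neu and 23.9, 24.5, 25.1 and 25.3 FPKM in Neu+NETS, with no overlap between any 2 groups (0.28 ± 0.032, adjusted p = 1.1e-06 and 0.61 ± 0.032, adjusted p = 1.2e-10). Kpna3, its close paralogue, fell in Neu and rose in Neu+NETS. Kpna3 read 28.5, 28.6, 27.8 and 29.2 FPKM in the CTR libraries, 21.7, 22.6, 21.9 and 22.9 FPKM in Neu and 36.8, 36.03, 35.4 and 35.6 FPKM in Neu+NETS (-0.30 ± 0.028 and 0.28 ± 0.028). Kpna1 did the same with a larger fall. Kpna1 read 13.1, 12.6, 11.3 and 13.03 FPKM in the CTR libraries, 7.81, 7.43, 7.62 and 7.49 FPKM in Neu and 16.99, 16.2, 16.3 and 17.2 FPKM in Neu+NETS (-0.66 ± 0.043 and 0.37 ± 0.042). Kpna6 changed little (15.8 ± 0.43 FPKM in CTR, 14.4 ± 0.52 in Neu and 17.3 ± 0.29 in Neu+NETS), and its call in Neu was lost in 13 of 23 settings.

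The makeup of importin alpha transcripts is given as shares of a sum that itself changed. The 5 genes summed to a mean of 183.9 FPKM in CTR, 119.1 in Neu and 200.5 in Neu+NETS. A share can therefore rise without a rise in level, as for Kpna6 (15.8 FPKM in CTR and 14.4 in Neu). Kpna2 took 60.6% ± 0.86 of the 5 genes' summed FPKM in CTR, 47.5% ± 0.45 in Neu and 52.8% ± 0.46 in Neu+NETS. Kpna4 took 8.53% ± 0.35, 15.3% ± 0.48 and 12.3% ± 0.24, and Kpna3 15.5% ± 0.30, 18.7% ± 0.29 and 17.9% ± 0.50. The libraries of the 3 groups did not overlap in the Kpna2 share or the Kpna4 share. Kpna6 took 8.597% ± 0.26 in CTR, 12.1% ± 0.30 in Neu and 8.65% ± 0.093 in Neu+NETS, and Kpna1 6.79% ± 0.35, 6.37% ± 0.25 and 8.31% ± 0.22. Overlapping shares were those of Kpna1 between Neu and CTR, Kpna6 between Neu+NETS and CTR and Kpna3 between Neu+NETS and Neu. These shares and the ratios were chosen after values were seen and are given without p-values.

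**Figure D3:**
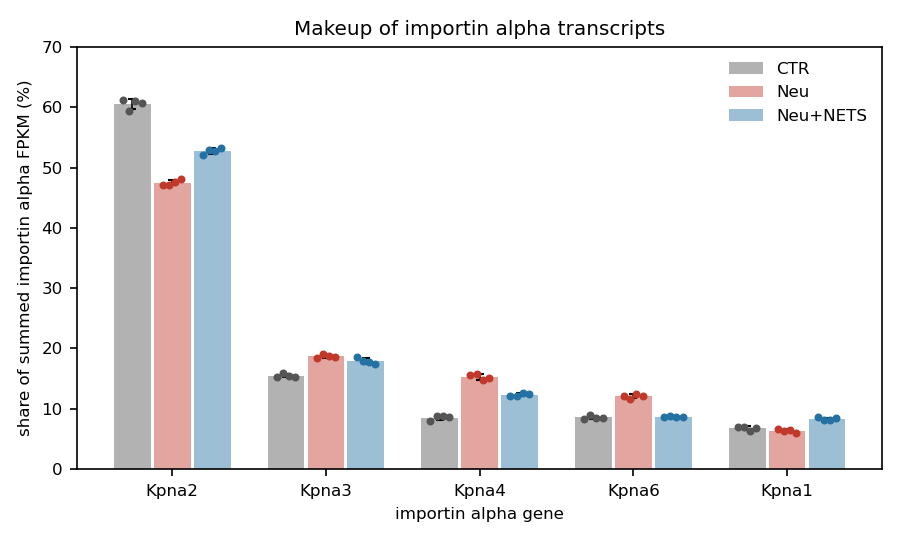
Share of each importin alpha gene in the 5 genes' summed FPKM (percent, bars: mean of 4 libraries with SD, points: libraries) in CTR, Neu and Neu+NETS. Kpna2 has the largest share in each group, 60.6% in CTR and 47.5% in Neu. The share of Kpna4 rises from 8.53% in CTR to 15.3% in Neu, of a sum that is lower in Neu.

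Of the importin beta family 10 of 11 members were called lower and 1 higher in Neu, with a median of -0.26. In Neu+NETS against CTR 6 were called higher and 1 lower. Kpnb1 is the carrier that works with importin alpha. Kpnb1 read 99.02, 97.8, 98.9 and 99.1 FPKM in the CTR libraries, 74.8, 74.04, 72.7 and 73.9 FPKM in Neu and 117, 117, 115 and 119.7 FPKM in Neu+NETS (-0.36 ± 0.020, adjusted p = 9.2e-11 and 0.20 ± 0.020, adjusted p = 3.3e-07), with each group separate from the others. Kpnb1 per summed importin alpha FPKM was 0.537 ± 0.013, 0.621 ± 0.016 and 0.584 ± 0.0050. Tnpo1 (chr13:98975527-99062892, minus strand), the carrier of many RNA-binding proteins, had the largest rise among members above 5 FPKM in Neu+NETS. Tnpo1 read 35.2, 32.8, 34.02 and 35.4 FPKM in the CTR libraries, 28.6, 28.2, 27.3 and 27.98 FPKM in Neu and 55.8, 55.4, 55.5 and 57.6 FPKM in Neu+NETS (-0.24 ± 0.026, adjusted p = 5.0e-07 and 0.66 ± 0.026, adjusted p = 2.5e-12). Ipo7 carries ribosomal proteins and other cargoes. Ipo7 read 35.5, 33.6, 34.02 and 35.3 FPKM in the CTR libraries, 28.7, 27.8, 26.5 and 28.2 FPKM in Neu and 46.3, 47.7, 47.05 and 47.1 FPKM in Neu+NETS (-0.26 ± 0.026 and 0.39 ± 0.026). Ipo13, a carrier that works in both directions, had the largest fall of the family. Ipo13 read 21.98, 22.96, 22.5 and 25.4 FPKM in the CTR libraries, 13.03, 13.7, 13.1 and 16.1 FPKM in Neu and 25.7, 26.9, 25.4 and 26.7 FPKM in Neu+NETS (-0.67 ± 0.055 and 0.13 ± 0.054, the latter not called), and replicate 4 was the highest in Neu. Tnpo2, the paralogue of Tnpo1 with E-boxes printed above, was 24.2 ± 1.4 FPKM in CTR, 26.2 ± 1.5 in Neu and 32.7 ± 0.56 in Neu+NETS, called higher in both co-cultures (0.17 and 0.38), although its Neu libraries overlapped CTR in FPKM and limma on all genes did not call it in Neu. Ipo5, Ipo9, Ipo11, Ipo8, Ipo4 and Tnpo3, importins for ribosomal proteins, histones and splicing factors among other cargoes, fell by 0.13 to 0.46 on the log2 scale in Neu. Ipo4's call in Neu was lost in 5 of 23 settings, and Tnpo3 overlaps Irf5 on the other strand, at a mean of 45 FPKM in CTR and 26.2 in Neu+NETS, so with no strand setting known its reads may be uncertain.

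Exportins had 7 of 7 members called lower in Neu, the lowest median of the role groups (-0.83), and 6 called higher with 0 lower in Neu+NETS against CTR. Cse1l (chr2:166747960-166788309, GRCm39, plus strand), the recycler of importin alpha, had a pattern repeated by others. Cse1l read 59.9, 54.9, 56.8 and 59.1 FPKM in the CTR libraries, 27.7, 27.8, 27.3 and 28.5 FPKM in Neu and 69.5, 72.9, 70.7 and 73.4 FPKM in Neu+NETS. Each Neu library was below each CTR library and each Neu+NETS library above it (-0.99 ± 0.028, adjusted p = 2.5e-14 and 0.26 ± 0.028, adjusted p = 5.8e-07). Cse1l per summed importin alpha FPKM was 0.314 ± 0.0066, 0.234 ± 0.0023 and 0.357 ± 0.0053, with no overlap between the libraries of any 2 groups. Xpo4, an exporter with few known cargoes, had the largest rise of the exportins in Neu+NETS. Xpo4 read 9.96, 9.23, 9.57 and 10.04 FPKM in the CTR libraries, 4.67, 4.75, 4.54 and 5.02 FPKM in Neu and 13.97, 14.4, 13.5 and 13.7 FPKM in Neu+NETS (-0.97 ± 0.035, adjusted p = 4.4e-13 and 0.47 ± 0.034, adjusted p = 6.4e-09). Xpo5, the carrier of precursor microRNAs, has the pair of NRF1 palindromes printed above. Xpo5 read 19.7, 20.5, 20.03 and 21.2 FPKM in the CTR libraries, 10.3, 9.93, 10.3 and 10.8 FPKM in Neu and 23.8, 24.5, 24.1 and 24.5 FPKM in Neu+NETS (-0.92 ± 0.030 and 0.20 ± 0.030). Xpot, the carrier of transfer RNAs with the E-box printed above, had changes of similar size. Xpot read 36.1, 34.2, 35.6 and 36.8 FPKM in the CTR libraries, 18.6, 19.3, 19.04 and 20.4 FPKM in Neu and 44.96, 45.1, 45.8 and 44.6 FPKM in Neu+NETS (-0.83 ± 0.030 and 0.29 ± 0.029).

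Xpo1 (CRM1), the main exporter of proteins with leucine-rich export signals, fell less. Xpo1 read 46.8, 43.2, 44.03 and 45.3 FPKM in the CTR libraries, 32.1, 32.9, 30.3 and 31.99 FPKM in Neu and 50.7, 50.04, 50.8 and 52.9 FPKM in Neu+NETS (-0.44 ± 0.030, adjusted p = 1.6e-09 and 0.14 ± 0.030, adjusted p = 0.00097). Xpo7 was low in level, lower in Neu and higher in Neu+NETS than in CTR. Its span overlaps Dok2 on the other strand, at a mean of 7.52 FPKM in CTR, 5.88 in Neu and 3.83 in Neu+NETS. Xpo7 read 5.48, 5.34, 5.43 and 5.69 FPKM in the CTR libraries, 4.04, 4.43, 4.07 and 4.24 FPKM in Neu and 7.27, 7.95, 7.71 and 7.13 FPKM in Neu+NETS (-0.33 ± 0.040 and 0.41 ± 0.039). Xpo6, the exporter of actin with profilin, was 6.86 ± 0.40 FPKM in CTR, 5.69 ± 0.35 in Neu and 7.55 ± 0.12 in Neu+NETS. Ran itself, the GTPase that sets the direction of transport, was the most abundant member. Ran read 237, 235, 228 and 227 FPKM in the CTR libraries, 131, 129, 131 and 128 FPKM in Neu and 240.0, 239.6, 238 and 239.8 FPKM in Neu+NETS. The 4 Neu libraries lay between 127.8 and 131 FPKM, far below CTR (-0.78 ± 0.025, adjusted p = 9.8e-14). In Neu+NETS against CTR the FPKM did not overlap on the higher side, whereas the count fit gave -0.00038 ± 0.024, adjusted p = 0.99, and its sign differed in 14 of 23 settings. Ran has near-identical copies in the genome, so its reads could be split.

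**Figure D4:**
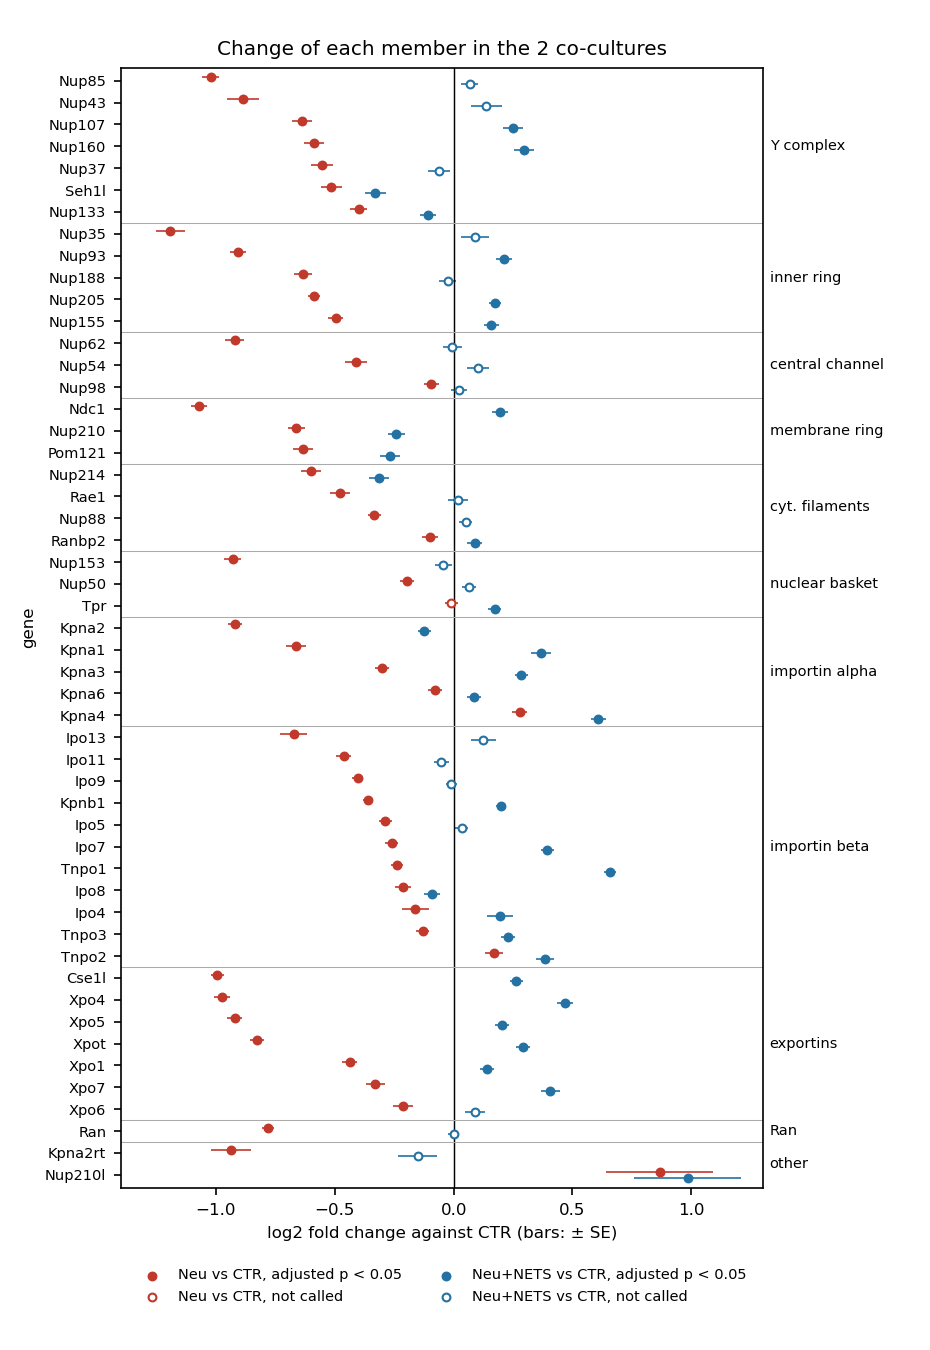
Log2 fold change (± SE) of the 51 tested members in Neu against CTR and in Neu+NETS against CTR, grouped by role, with open points where the adjusted p was not under 0.05. Neu values are mostly below 0, down to -1.19 for Nup35, and Neu+NETS values lie around or above 0, up to 0.66 for Tnpo1 and 0.99 for Nup210l.

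Nup210l, a paralogue of Nup210 best known from the testis, was far less abundant, at 0.195 ± 0.054 FPKM in CTR, 0.347 ± 0.036 in Neu and 0.405 ± 0.090 in Neu+NETS (0.87 ± 0.23 and 0.99 ± 0.22 in Neu and Neu+NETS against CTR). Its span overlaps Gm43712 on the same strand, at a mean of 1.36 FPKM in CTR, 1.485 in Neu and 1.415 in Neu+NETS, so reads may be shared. Nup210l and Nup62cl were the members below 1 FPKM in every group.

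Genes outside the rule that act with these members were given as context, and the shares of all tested genes given with the Y complex stand beside their counts too. The Ran cycle had 6 of 6 genes called lower in Neu (median -0.82), and in Neu+NETS against CTR 4 were called higher and 0 lower. Rcc1, the nucleotide exchange factor that loads Ran with GTP, was 24.6 ± 1.6 FPKM in CTR, 9.59 ± 0.32 in Neu and 27.8 ± 1.1 in Neu+NETS (-1.30 and 0.13), and Ranbp1, a cofactor of GTP hydrolysis, was 126 ± 4.8, 61.4 ± 2.2 and 133 ± 2.2. Nutf2, the import carrier of Ran, changed by -0.66 and 0.20. Of 19 mRNA and ribosome export genes 15 were called lower and 2 higher in Neu (median -0.24), and 8 higher and 2 lower in Neu+NETS against CTR. The largest falls in Neu among those with the smallest adjusted p were in Alyref, an mRNA export adaptor (-1.09), and Nxt1, the partner of the export receptor Nxf1 (-1.02), while Ddx19b rose in Neu+NETS (0.56). Pore proteins outside the rule had 4 of 5 called lower in Neu and 3 of 5 called higher in Neu+NETS against CTR, Ahctf1 (ELYS), which seeds pore assembly on chromatin, changing by -0.64 and 0.28. The lamina and LINC complex differed, with 4 higher and 5 lower of 11 in Neu (median 0.00) and 3 higher and 6 lower in Neu+NETS against CTR. Lmnb1 (lamin B1) fell in Neu (48.7 ± 0.95 to 22.1 ± 1.3 FPKM, -1.08) and Lbr, the lamin B receptor, fell in Neu and rose in Neu+NETS (-0.62 and 0.52), whereas Syne1 and Sun2, which link the envelope to the cytoskeleton, rose in Neu (0.45 and 0.25) and fell in Neu+NETS (-0.88 and -0.57).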

How the data were processed

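The data are 1 table of 27487 genes in 12 libraries of polyadenylated RNA. Its columns were matched to libraries by name, with 0 columns of per-sample values unmatched. Build GRCm39, edgeR, StringTie 1.3.4d and HISAT2 2.0.4 appear in the submitters' processing notes without role or order. The annotation, strandedness and any filter were not given in the sources used here. Whole-number estimated counts, unscaled as judged from column totals that differ, were deposited for each library. Of the low deposited estimated counts, 33.0% of values from 2 to 41 are multiples of 4, where an even spread gives 25%, so the number of fragments behind a count is uncertain. FPKM values stand beside them as the authors computed them, according to the column names. Replicates differed by more than sampling noise (chi-square per degree of freedom 1.87 to 4.47 on counts divided by 4).

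Genes kept by filterByExpr (16387) were scaled by TMM (factors 0.97 to 1.03) and entered 1 quasi-likelihood fit over all 12 libraries with a mean per group (edgeR 4.0.16, R 4.3.3; biological coefficient of variation 12.5%), with two-sided tests and Benjamini-Hochberg adjustment over all genes. The script was tested on simulated data. The members and gene lists were chosen with earlier results of these data known, and no test of a list was made. Values in every library are given for the 30 members with the largest called changes of at least 0.5 log2 and a mean of at least 5 FPKM in the higher group (34 met this), and for 10 best-known members, 34 genes in all. Related genes are those of fixed lists with the smallest adjusted p, up to 4 for each list and comparison, and those printed were picked among these. Shares and ratios of FPKM were chosen after values were seen. Exact permutation tests were run on them and are not given as results. Alternatives were limma 3.58.1 on log2(FPKM + 1) and log2(FPKM + 0.1), DESeq2 1.42.0, other factors, filters, sample sets and a replicate block, and each library left out. Of the members 31 overlap other listed genes, whose reads may be shared.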

Additional observations from a re-analysis of the deposited data

Results flagged for a closer look

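In 5 of 102 groups of 4 libraries tested, 1 library lay apart from the other three by the gap test of Dixon at 95%, which chance gives in about 1 in 20 groups. Kpna2 was 59.4 FPKM in Neu replicate 4 and 55.4 to 55.9 in the other Neu libraries. Nup35 was 6.69 FPKM in Neu replicate 4 and 6.26 to 6.27 in the others. Nup107 was 26.1 FPKM in CTR replicate 1 and 23.4 to 23.5 in the others. Nup160 was 21.0 FPKM in Neu+NETS replicate 2 and 19.9 in the others. Tnpo1 was 57.6 FPKM in Neu+NETS replicate 4 and 55.4 to 55.8 in the others. In each case the library stayed on the same side of every library of the groups it differed from.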

How the results depend on the processing

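Under 23 alternatives (12 leaving out 1 library, 11 others) the medians of the 3 comparisons kept their direction. In Neu against CTR the median moved from -0.50 to -0.53 with limma on log2(FPKM + 1), -0.56 with a pseudocount of 0.1 and -0.45 with upper-quartile factors. Members called at least 0.5 higher went from 1 to 0 in the 3 limma settings. That member, Nup210l, was below the FPKM filter of limma and was not tested there. With limma on all genes it was still called higher, by 0.17 with the pseudocount of 1 (adjusted p = 0.041). The median of all tested genes in Neu against CTR was 0.02 over 16387 genes and 0.07 with upper-quartile factors. With limma it was -0.08 (pseudocount 1) and -0.10 (0.1) over the 11626 genes that passed the FPKM filter, and 0 over all 27487. The sets of genes differ, so these moves are not due to the pseudocount alone. In Neu+NETS against CTR the median moved from 0.10 to 0.14 in the 3 limma settings, 0.13 with DESeq2 and RLE factors and 0.12 with no filter, members called lower went from 7 to 4 in the 3 limma settings, and medians without 1 library were 0.0918 to 0.118. For Neu+NETS against Neu the median moved from 0.58 to 0.67, 0.69 and 0.66 with limma (pseudocount 1, 0.1, and all genes), 0.53 with upper-quartile factors, 0.56 with at least 1 CPM and 0.61 with only the groups compared, and was 0.56 to 0.59 without 1 library. The median of all tested genes there was -0.05 in the main fit and 0.12 with limma and a pseudocount of 0.1, over the smaller set of 11626 genes. Of the 19 members not called in Neu+NETS against CTR, 6 changed sign in at least 1 setting (Ipo9, Nup62, Nup153, Nup188, Rae1 and Ran) and 8 became called in at least 1, of 23 settings each: Ipo13 (9), Nup54 (7), Xpo6 (6), Nup50, Nup85 and Nup88 (5 each), Nup43 (4) and Ipo5 (2), chiefly with limma, DESeq2 and RLE factors. Besides the libraries left out, Ipo8's call there was ended by 7 other settings (limma, DESeq2, RLE factors, no filter, only the groups compared) and Nup133's by the 3 limma settings. Tpr in Neu against CTR was -0.01 and became 0.0347 with upper-quartile factors, 0.014 with at least 1 CPM and 0.0080 on counts divided by 4, and -0.021 to 0.0053 without 1 library. For Neu+NETS against CTR, limma with a pseudocount of 1 (the same with all genes) and of 0.1 gave Ipo9 0.0386 and 0.0395, Nup153 0.0060 and 0.0062, Nup188 0.0243 and 0.0246, Nup62 0.0435 and 0.0442 and Ran 0.0486 and 0.0488. DESeq2 and RLE factors both gave Ipo9 0.0141, with Nup62 at 0.0186 and 0.0187 and Ran at 0.0231. No filter gave Nup62 0.0035 and Ran 0.0080, and Ran was 0.0013 with at least 1 CPM, 0.0037 on counts divided by 4 and 0.00094 with only the groups compared. Without 1 library Ipo9 was -0.0178 to 0.0020, Nup62 -0.0129 to 0.0171, Rae1 -0.0175 to 0.051 and Ran -0.0121 to 0.0157, and in alternatives chosen after seeing the data the Kpna6 share differed by -0.0200 to 0.18 percentage points and the Nup50 share by -0.22 to 0.63. Leaving out 1 library ended some calls near the threshold. In Neu against CTR these were Ipo4 (without CTR 3, Neu 1 or Neu 2, adjusted p 0.068 to 0.092), Kpna6 (CTR 2, CTR 4, Neu 1, Neu 2 or Neu+NETS 3, 0.051 to 0.14), Nup98 (CTR 3, Neu 2 or Neu 3, 0.066 to 0.086) and Ranbp2 (Neu 3, 0.055). In Neu+NETS against CTR they were Ipo8 (CTR 1, CTR 4 or Neu+NETS 1, 2 or 3, 0.073 to 0.13), Kpna6 (CTR 1, CTR 3 or Neu+NETS 2, 3 or 4, 0.057 to 0.089), Nup133 (CTR 3, 0.058) and Ranbp2 (CTR 2, CTR 4 or Neu+NETS 2, 3 or 4, 0.059 to 0.10), while Ipo13 (CTR 4 or Neu 4), Nup54 (CTR 3 or Neu+NETS 2) and Xpo6 (CTR 4) became called (0.016 to 0.039). Replicate numbers showed no pairing (12 same-number pairs, r -0.0546 to 0.0426, and 0 libraries closest to their own number in both other groups at once). With the replicate number as a block, 3 members were called higher and 46 lower in Neu against CTR (Kpna6 lost), 26 and 7 in Neu+NETS against CTR (Ipo13 and Xpo6 gained, Ranbp2 lost) and 50 and 0 in Neu+NETS against Neu. No fold can be read for Nup62cl at this depth.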
